A study of Mus musculus with 12 samples.

Results

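Pisd encodes phosphatidylserine decarboxylase, and 3 pseudogenes of it, Pisd-ps1, Pisd-ps2 and Pisd-ps3, are listed beside it in the mouse gene table. The 4 genes were taken by symbol from a deposited table of 25511 genes and were read in every library. Pisd-ps3 was chosen by its measured difference between libraries labelled knockout and wild-type in unconditioned medium, and the other 3 genes were taken with it as its relatives. Differences between the genotypes in that medium are therefore given as a description, without a test. All 4 genes passed the filter on low counts.

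Phosphatidylserine decarboxylase is an enzyme of the inner mitochondrial membrane. It converts phosphatidylserine, which reaches mitochondria from the endoplasmic reticulum, into phosphatidylethanolamine, a lipid that bends membranes and is needed by respiratory complexes. The other main route to phosphatidylethanolamine, the CDP-ethanolamine pathway, runs in the endoplasmic reticulum. A transcribed pseudogene is a copy of a gene that is read into RNA but is not annotated as coding for the enzyme.

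RNA was sequenced from primary osteoblast-like cells freed by collagenase from the calvariae (skull bones) of neonatal C57Bl/6J mice, either wild-type (WT) or labelled F2rl1 -/- (KO), which lack the gene of protease-activated receptor 2 by their label. After a preculture of 48 h, cells of both genotypes spent 4 days in BRFF-HPC1 medium with 20% fetal calf serum. In the conditioned groups, human prostate cancer cells of the MDA-PCa-2b line had grown in that medium for 48 h beforehand. The unconditioned groups received it fresh. The 4 groups held 3 samples each, but 2 libraries of the unconditioned WT group differed by less than sampling noise (equal values for 91.8% of 17538 genes) and were counted as 1 sample, so 11 distinct libraries were compared.

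The libraries held 15023994 to 16956754 fragments. F2rl1 itself was scarce and was not lower in the libraries labelled KO. In unconditioned medium it was higher in every KO library, with 33, 33 and 46 fragments, than in the WT libraries, with 25 and 20, which goes against the labels. In conditioned medium the genotypes overlapped, with 14, 23 and 14 fragments in WT and 31, 13 and 12 in KO. These are sums over the whole gene and do not show which part was deleted, so genotypes are given as labelled throughout. One sample titled WT and unconditioned carries the KO genotype label, and it may or may not be 1 of the 2 distinct libraries of that group. Conditioned KO library 0 stood apart from KO libraries 1 and 2. Over 13603 genes, 0 were called between the genotypes in conditioned medium with it and 4507 without it. A gene is called at an adjusted p under 0.05 (edgeR quasi-likelihood test, Benjamini-Hochberg over all genes). Osteoblast markers summed to 18754 to 48035 CPM (fragments scaled to a common library size), led by Col1a1, Col1a2 and Spp1, while the late markers Bglap and Dmp1 reached at most 13 and 5 fragments in a library. Summed markers of other cells stayed lower, at 7.44 to 27.7 CPM for 5 macrophage genes, 3.88 to 15.2 CPM for 4 endothelial genes and 11.8 to 113 CPM for 5 skeletal muscle genes. In bulk RNA, fewer cells of a type and less RNA per cell cannot be told apart.

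Pisd lies on the minus strand of mouse chromosome 5, at 32736301 to 32785642 (GRCm38, RefSeq). Pisd-ps1 is annotated on chromosome 11 at 3124002 to 3131945, Pisd-ps2 on chromosome 17 at 3064318 to 3084183, and Pisd-ps3 on an unplaced contig at 52674 to 59689. RefSeq lists all 3 copies as transcribed pseudogenes. The transcripts of Pisd-ps1 and Pisd-ps2 matched the second part of the Pisd coding sequence, which has 1221 bases. Pisd-ps1 was identical to Pisd at 95.1% of 897 aligned bases, and Pisd-ps2 at 96.6% of 881. Between themselves, the pair was identical at 96.7% of the 869 coding bases aligned in both. The longest run without a difference from Pisd was 97 bases in Pisd-ps1 and 139 bases in Pisd-ps2.

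The stretch below is the first 120 bases of the longest stretch that aligned without gaps within exons of Pisd, Pisd-ps1 and Pisd-ps2. It covers coding bases 313 to 432 of Pisd, counted from 1 at the start codon, inside 1 coding exon. It lies at chr5:32739254-32739373 (minus strand) in Pisd, at chr11:3128929-3129048 (plus strand) in Pisd-ps1 and at chr17:3079472-3079591 (minus strand) in Pisd-ps2, all in GRCm38 with GENCODE transcripts. Each is written 5′ to 3′, and capitals mark bases that differ from Pisd.
Pisd: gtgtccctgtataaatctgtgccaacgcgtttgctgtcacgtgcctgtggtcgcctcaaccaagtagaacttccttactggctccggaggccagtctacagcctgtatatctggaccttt
Pisd-ps1: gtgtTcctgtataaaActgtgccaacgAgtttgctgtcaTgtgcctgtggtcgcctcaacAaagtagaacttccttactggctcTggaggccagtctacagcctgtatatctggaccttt
Pisd-ps2: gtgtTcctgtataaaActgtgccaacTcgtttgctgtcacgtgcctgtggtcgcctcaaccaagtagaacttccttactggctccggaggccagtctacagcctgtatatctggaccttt
Pisd-ps1 differed from Pisd at 6 of these 120 bases. Pisd-ps2 differed at 3, all near the start of the stretch, so the rest does not separate it from Pisd. Of all 50-base windows of the Pisd coding sequence, 10.8% occurred unchanged in the Pisd-ps1 transcript and 18.2% in that of Pisd-ps2. A read that lies wholly within such a window cannot be assigned between Pisd and that copy by its sequence alone. A longer fragment may reach bases that differ. The transcripts searched had 1115 bases for Pisd-ps1 and 1175 for Pisd-ps2, and the untranslated bases of Pisd were not compared. The windows include the coding bases before 312, which aligned to neither copy, so these shares are not limited to the aligned parts. No sequence of Pisd-ps3 was in the sources used here, so its likeness to Pisd and to the other copies was not measured. How fragments were divided among the copies is not given in these sources either. Values of the single members, Pisd-ps3 included, are uncertain for these reasons, by an amount that was not measured.

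The deposited tables follow 2 start-site groups for Pisd, and RefSeq has 2 Pisd promoters, shown here for their different base content. The outer start site, at position 32785626, is the end of the Pisd locus in the deposited table, and the inner one is at 32746342. The 250 bases before each are printed 5′ to 3′ on the minus strand (GRCm38, RefSeq), with a CCAAT box in capitals. Which start-site group goes with which promoter is not given in the sources used here.
Pisd outer promoter, chr5:32785627-32785876: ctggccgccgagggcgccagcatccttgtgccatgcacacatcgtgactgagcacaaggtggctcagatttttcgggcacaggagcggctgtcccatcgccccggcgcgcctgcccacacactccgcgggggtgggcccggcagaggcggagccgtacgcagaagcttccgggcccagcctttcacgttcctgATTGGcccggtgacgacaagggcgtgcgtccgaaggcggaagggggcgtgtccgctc
Pisd inner promoter, chr5:32746343-32746592: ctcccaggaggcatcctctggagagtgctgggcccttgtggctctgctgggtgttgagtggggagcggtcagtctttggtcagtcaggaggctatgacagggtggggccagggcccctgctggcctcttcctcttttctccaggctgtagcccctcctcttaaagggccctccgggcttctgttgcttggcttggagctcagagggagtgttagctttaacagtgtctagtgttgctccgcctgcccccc
The outer promoter had 68.8% G and C and 26 CpG pairs. The inner one had 61.2% and 3, against medians of 52.4% and 6 over 32851 mouse promoter windows of the same length. The motif CCAAT, searched on both strands, occurred 1 time in the outer and 0 times in the inner window, and in 33.8% of all windows. The GC box GGGCGG occurred in neither, and in 32.7% of all windows.

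Levels are compared between genes as FPKM, fragments scaled to transcript length and library depth. Pisd was the most abundant member in the KO libraries, while Pisd and Pisd-ps3 had similar levels in the WT libraries. Over all libraries Pisd ranged from 18.2 to 27.0 FPKM, Pisd-ps3 from 7.68 to 24.1, Pisd-ps1 from 0.767 to 2.19 and Pisd-ps2 from 0.876 to 1.56. In unconditioned WT libraries Pisd had 18.6 ± 0.544 FPKM (SD, n = 2) and Pisd-ps3 18.1 ± 1.99, and the values of the genes overlapped. In unconditioned KO libraries Pisd had 19.8 ± 1.21 FPKM (SD, n = 3) and Pisd-ps3 8.27 ± 0.525, without overlap. The order was the same in conditioned medium, with Pisd at 23.1 ± 1.65 and Pisd-ps3 at 22.3 ± 2.23 FPKM in WT, and 24.7 ± 2.38 and 12.5 ± 1.37 FPKM in KO (SD, n = 3 each). Pisd-ps1 and Pisd-ps2 overlapped in each of the 4 groups, so their order was not resolved.

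**Figure D1:**
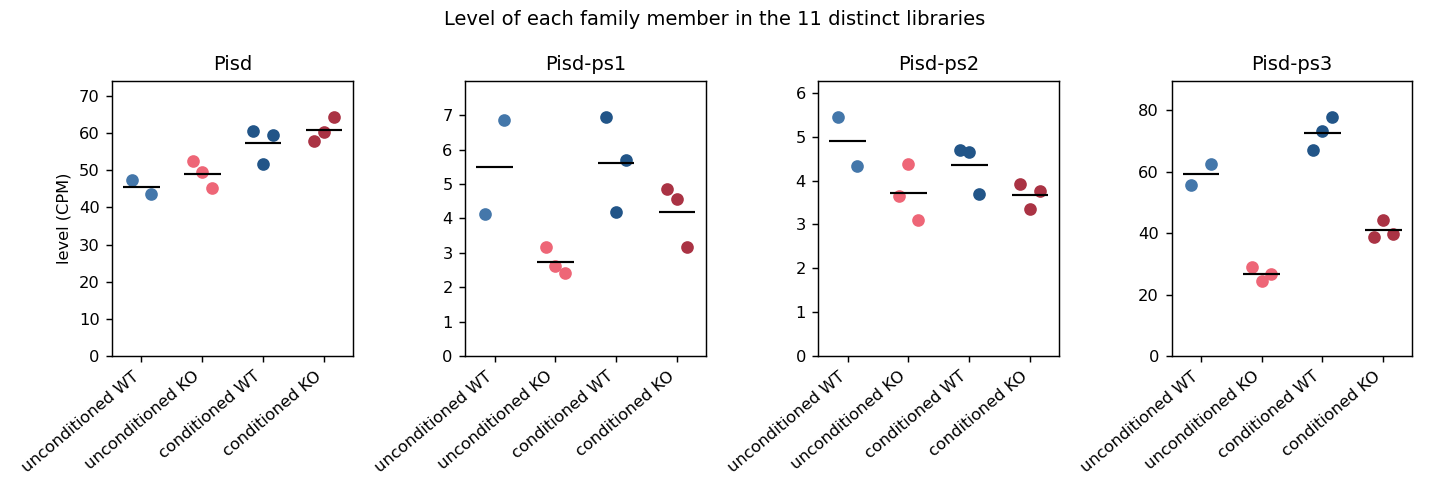
Level of each member in CPM (vertical axis, from 0) in each of the 11 distinct libraries (points), with the group mean as a line. The KO libraries of Pisd-ps3 lie below the WT libraries in both media, while those of Pisd lie among them.

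Pisd-ps3 RNA was lower in the libraries labelled KO in both media. In unconditioned medium it had 849 and 894 fragments in the WT libraries and 430, 347 and 398 in the KO libraries. In conditioned medium it had 1041, 1085 and 1176 fragments in the WT libraries and 620, 727 and 738 in the KO libraries. Every KO library was below every WT library within each medium, and the highest conditioned KO library was below the lowest unconditioned WT library. The level was 26.8 ± 2.30 CPM (SD, n = 3) in unconditioned KO against 59.1 ± 4.75 CPM (n = 2) in WT, the difference by which the gene was selected (log2 -1.14, SE 0.12). Of all genes, 0.00735% were called in that comparison, and 8.01% had every KO library below every WT library. The 4 summed endothelial markers were also lower in the unconditioned KO libraries, at 3.88 to 6.22 CPM, than in the WT libraries, at 6.57 to 7.83 CPM. None of the 4 was at 0 in any library, and their part in the result was not tested.

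In conditioned medium, whose libraries were not used to select the gene, the level was 40.9 ± 2.98 CPM in KO against 72.7 ± 5.44 CPM in WT (SD, n = 3 each). The KO libraries may be paired across media, and the fit takes its spread from all 4 groups. The test in this medium is therefore not fully independent of the selection. The log2 difference was -0.83 (SE 0.11), a ratio of 0.562, with an unadjusted p of 1.83e-05 and an adjusted p of 0.249 in edgeR, so it was not called. No gene was called in this comparison (0% of 13603), and 1897 genes (13.9%) had an unadjusted p under 0.05. Pisd-ps3 ranked 1 among them by p. In 4.22% of genes every KO library was below every WT library. DESeq2 called 2 genes and Pisd-ps3 was among them (log2 -0.83, SE 0.12, adjusted p = 2.13e-07). Without conditioned KO library 0, edgeR gave -0.78 (SE 0.11, adjusted p = 0.00204), in a fit that called 33.2% of all genes. Fitted to only the 2 groups compared, edgeR gave -0.83 (SE 0.12, adjusted p = 0.530). Over all alternatives the adjusted p ranged from 2.13e-07 to 0.957 and the log2 difference from -0.88 to -0.75. Summed adipocyte markers moved in the same direction in this medium, from 7.21 to 9.20 CPM in the WT libraries and from 2.62 to 6.41 CPM in the KO libraries. Their part in the result was not tested.

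Pisd, the gene that codes for the enzyme, overlapped between the genotypes. It had 721 and 623 fragments in the unconditioned WT libraries and 777, 703 and 671 in the unconditioned KO libraries. The conditioned WT libraries had 942, 765 and 901 fragments, and the conditioned KO libraries had 932, 989 and 1194. The overlap held in both media, and conditioned libraries were above unconditioned ones within each genotype. KO minus WT was 0.11 (SE 0.12) on the log2 scale in unconditioned medium. In conditioned medium it was 0.09 (SE 0.10, adjusted p = 0.644 in edgeR), with 57.3 ± 4.92 CPM in WT and 60.9 ± 3.24 CPM in KO (SD, n = 3 each).

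Pisd-ps1 was scarce, and its values were more scattered. It had 62.8 and 97.5 fragments in the unconditioned WT libraries and 47.2, 36.8 and 36.3 in the unconditioned KO libraries. The conditioned libraries had 108, 61.8 and 85.8 fragments in WT and 77.6, 75.5 and 59.0 in KO. The KO libraries were below the WT libraries in unconditioned medium and overlapped with them in conditioned medium. The log2 difference was -1.0 (SE 0.31) in unconditioned medium, but -0.59 without unconditioned WT library 2. In conditioned medium it was -0.42 (SE 0.28, adjusted p = 0.436 in edgeR). Its fragments are fractional in the deposited table. In the deposited coordinates it has the same interval as Sfi1, a gene with 118 to 216 fragments. How far the genes themselves overlap was not measured. These libraries do not mark the strand, so reads of the pair cannot be told apart wherever the genes do overlap.

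Pisd-ps2 had 83 and 62 fragments in the unconditioned WT libraries, 54, 62 and 46 in the unconditioned KO libraries, 73, 69 and 56 in the conditioned WT libraries and 63, 55 and 70 in the conditioned KO libraries. The genotypes overlapped in both media. The log2 differences were -0.40 (SE 0.23) in unconditioned medium and -0.24 (SE 0.21, adjusted p = 0.529 in edgeR) in conditioned medium.

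A fragment divided only among the 4 genes counts the same in their sum, however it was divided. Reads that were dropped, counted repeatedly or shared with other genes such as Sfi1 would still change the sum. The summed level, with the same TMM scaling as the single genes, was 113 and 117 CPM in the unconditioned WT libraries. It was 88.4, 81.0 and 77.6 CPM in the unconditioned KO libraries. The conditioned libraries had 139, 134 and 147 CPM in WT and 105, 112 and 111 CPM in KO. The sum was thus lower in each KO library than in each WT library of the same medium. The fitted log2 difference was -0.48 (SE 0.098) in unconditioned and -0.35 (SE 0.088) in conditioned medium. The unconditioned sum includes the values by which Pisd-ps3 was selected and is a description only. Among single genes, 8.01% in unconditioned and 4.22% in conditioned medium had every KO library below every WT library. Pisd-ps3 took 49.5% and 53.3% of the summed fragments in the unconditioned WT libraries and 30.2% to 34.6% in the KO libraries. Its share was 48.1% to 54.8% in the conditioned WT libraries and 35.8% to 39.4% in the conditioned KO libraries. For each fragment of Pisd there were 1.11 to 1.43 fragments of Pisd-ps3 in the WT libraries of both media, and 0.494 to 0.735 in the KO libraries.

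**Figure D2:**
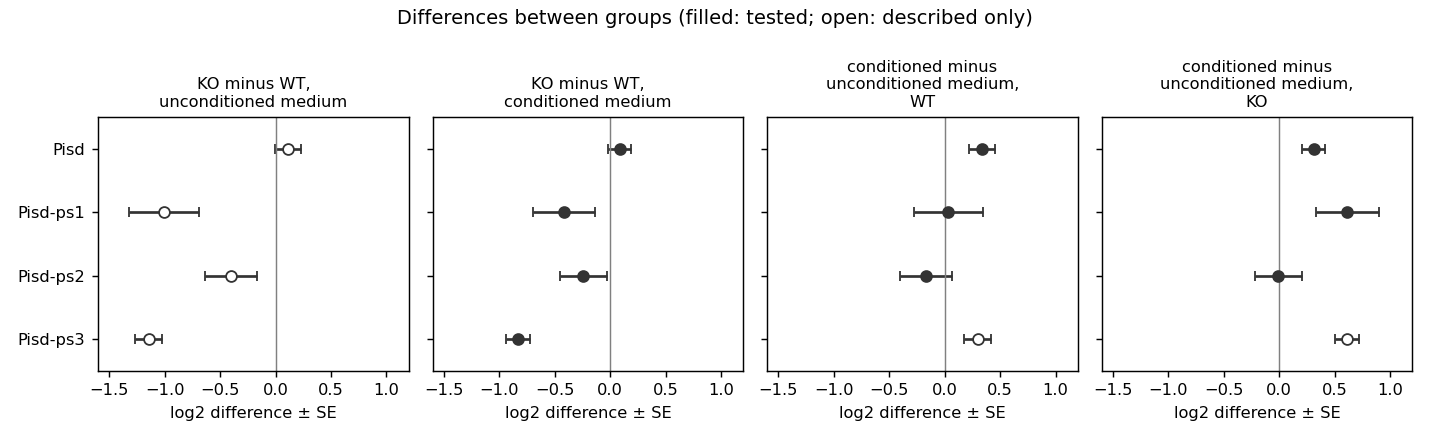
Log2 difference between 2 groups (horizontal axis, error bars 1 SE) for each member in 4 comparisons, from the fit across all genes. Filled points were tested and open points are descriptions. Pisd-ps3 is at -1.14 and -0.83 between the genotypes, whereas Pisd is at 0.11 and 0.09.

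Conditioned medium went with higher Pisd and Pisd-ps3 levels in both genotypes, but no tested member was called. In WT, Pisd had a log2 difference between conditioned and unconditioned medium of 0.33 (SE 0.12, adjusted p = 0.194 in edgeR). In KO the difference was 0.31 (SE 0.10, adjusted p = 0.0627 in edgeR). Its level went from 45.5 ± 2.70 CPM (SD, n = 2) to 57.3 ± 4.92 CPM (n = 3) in WT, and from 49.1 ± 3.67 to 60.9 ± 3.24 CPM (n = 3 each) in KO. Of all genes, 1.78% were called in WT (1.23% higher, 0.551% lower) and 18.3% in KO (9.68% higher, 8.58% lower). In 21.8% and 15.8% of genes, every conditioned library was above every unconditioned one, as it was for Pisd and Pisd-ps3 in both genotypes and for Pisd-ps1 in KO. Without conditioned KO library 0 the Pisd difference in KO was called (0.35, SE 0.10, adjusted p = 0.0238), as were 44.9% of all genes. It was also called without unconditioned KO library 0 (0.36, SE 0.11, adjusted p = 0.0465), as were 22.8% of all genes. DESeq2 called it too (0.30, SE 0.12, adjusted p = 0.0388), with 26.4% of all genes. With library totals in place of TMM scaling it was 0.50 (adjusted p = 0.0224 in edgeR), and 26% of all genes were called. That scaling moved the median of all genes in KO from 0.02 to 0.21, and its calls were 2680 higher and 858 lower, against 1317 higher and 1167 lower with TMM. Other markers moved with the medium too. The 4 endothelial markers summed to 6.57 to 7.83 CPM in unconditioned and 9.33 to 14.4 CPM in conditioned WT libraries, and to 3.88 to 6.22 and 7.84 to 15.2 CPM in KO. The 3 adipocyte markers went the other way, from 11.5 to 14.8 down to 7.21 to 9.20 CPM in WT and from 9.73 to 39.5 down to 2.62 to 6.41 CPM in KO. Summed osteoblast markers overlapped between media in WT, but in KO lay at 28950 to 48035 CPM in unconditioned and 18754 to 26034 CPM in conditioned libraries. The part of these markers in the medium differences was not tested.

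For Pisd-ps3 the medium differences share libraries with the comparison that selected it and are given as values. They were 0.30 (SE 0.12) in WT and 0.61 (SE 0.11) in KO on the log2 scale, and the difference between the genotypes' medium effects was 0.31 (SE 0.16). In WT, Pisd-ps1 had 0.03 (SE 0.31, adjusted p = 0.979) and Pisd-ps2 -0.17 (SE 0.23, adjusted p = 0.821). In KO, Pisd-ps1 had 0.61 (SE 0.29, adjusted p = 0.149) and Pisd-ps2 -0.01 (SE 0.21, adjusted p = 0.98). The genotypes' medium effects differed by -0.02 (SE 0.16, adjusted p = 0.975) for Pisd, 0.58 (SE 0.42, adjusted p = 0.819) for Pisd-ps1 and 0.16 (SE 0.32, adjusted p = 0.909) for Pisd-ps2. All of these are edgeR values. For no gene was this interaction called (0% of 13603), while 412 (3.03%) had an unadjusted p under 0.05. DESeq2 called 0.

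Within Pisd-ps3, 2 assembled transcripts were followed, each with its own start-site group. TCONS_00039823, of 2863 bases, matches the annotated transcript. TCONS_00039822, of 3242 bases, shares at least 1 splice junction with it. The annotated form had 526 and 499 fragments in the unconditioned WT libraries and 319, 251 and 302 in the unconditioned KO libraries. Conditioned libraries had 690, 681 and 727 in WT and 459, 499 and 485 in KO. The other form had 323 and 395 fragments in unconditioned WT, 111, 96.3 and 96.3 in unconditioned KO, 351, 404 and 449 in conditioned WT and 161, 228 and 253 in conditioned KO. Both forms were lower in every KO library than in every WT library of the same medium. The unconditioned libraries are those that selected the gene. How many of all transcripts separated in this way was not counted. Among genes, 8.01% in unconditioned and 4.22% in conditioned medium had every KO library below every WT library.

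The annotated form took 55.8% and 62.0% of the gene's fragments in unconditioned WT and 72.3% to 75.8% in unconditioned KO, without overlap. How often such shares separate over all genes was not counted. In conditioned medium it took 61.8% to 66.3% in WT and 65.7% to 74.0% in KO, with overlap. In conditioned medium the log2 difference between KO and WT was -0.70 (SE 0.11, adjusted p = 0.485 in edgeR) for the start-site group of the annotated form and -1.08 (SE 0.18, adjusted p = 0.485) for the other, over 16972 start-site groups, of which 0% were called. For the transcripts it was -0.69 (SE 0.11, adjusted p = 0.380 in edgeR) and -1.07 (SE 0.19, adjusted p = 0.616), over 23323 transcripts, of which 0.0172% were called. All 4 were called by DESeq2, with adjusted p from 4.06e-08 to 0.000270, among 0.253% of start-site groups and 0.613% of transcripts. Without conditioned KO library 0 edgeR called all 4, with adjusted p from 0.00804 to 0.0228, among 18.6% of start-site groups and 8.43% of transcripts. In the authors' deposited table, KO against WT in conditioned medium was -0.71 (q = 0.0259) for the start-site group of the annotated form and -1.08 (q = 0.0272) for the other, both called by the authors, as were 7.2% of 16176 groups. In unconditioned medium, whose libraries selected the gene, the authors' deposited table gives -0.80 and -1.75. These values are a description only, and 2.21% of 16407 groups were called there. The authors' deposited table of start-site shares gives a distance between WT and KO (square root of the Jensen-Shannon divergence, from 0 for equal shares). It was 0.106 in unconditioned medium, as a description, and 0.0416 (q = 0.943) in conditioned medium.

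**Figure D3:**
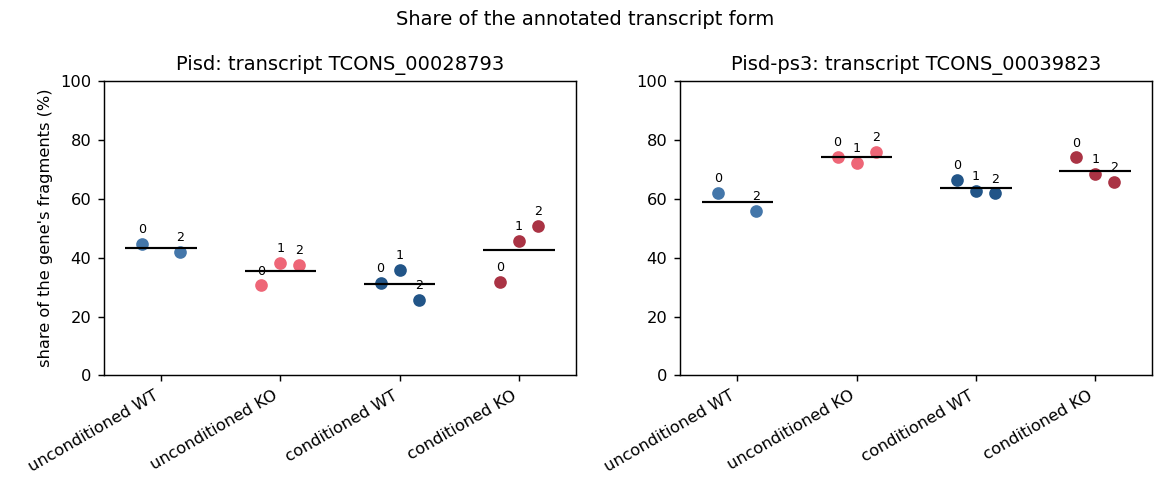
Share of the gene's fragments (vertical axis, percent) in the transcript that matches the annotation, for Pisd and Pisd-ps3, in each library (points with the library number) and as the group mean (line). For Pisd-ps3 the unconditioned KO libraries, from 72.3% to 75.8%, lie above the unconditioned WT libraries. For Pisd, conditioned KO library 0 lies at 31.7% and libraries 1 and 2 at 45.6% and 50.8%.

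Pisd has likewise 2 transcripts, TCONS_00028793 of 2150 bases, which matches the annotation, and TCONS_00028792 of 2414 bases, which shares at least 1 junction with it. The annotated form had 322 and 262 fragments in unconditioned WT, 238, 269 and 251 in unconditioned KO, 297, 273 and 231 in conditioned WT and 295, 451 and 607 in conditioned KO. It was thus highest in conditioned KO libraries 1 and 2, while conditioned KO library 0 lay within the WT range. Its start-site group had a log2 difference between KO and WT in conditioned medium of 0.58 (SE 0.21, adjusted p = 0.485 in edgeR), against -0.19 (SE 0.15, adjusted p = 0.586) for the other group. Without conditioned KO library 0 the former was called (0.79, SE 0.15, adjusted p = 0.0115), among 18.6% of all start-site groups. In the authors' deposited table the values were 0.57 (q = 0.405) and -0.21 (q = 0.746). The forms of Pisd-ps1 changed share widely between libraries, from 18.0% to 74.5% for TCONS_00004293, on 8.5 to 50.2 fragments. The second form of Pisd-ps2 was under the filter on low counts.

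The other genes of phosphatidylserine, phosphatidylethanolamine and mitochondrial phospholipid metabolism were read from a list of 44 genes, all in the table and 43 tested. Between the genotypes none was called by edgeR or DESeq2. Of all genes, edgeR called 0.00735% in unconditioned and 0% in conditioned medium. In unconditioned medium 0 of 43 had an unadjusted p under 0.05, against 2.16% of all genes. In conditioned medium 7 of 43 had, against 13.9%. The median log2 difference was 0.0046 in unconditioned medium, against 0.0095 over all genes, and -0.09 against -0.01 in conditioned medium. The smallest p in unconditioned medium belonged to Cept1, which joins the head group to diacylglycerol (0.29, SE 0.15), the acyltransferases Mboat1 (0.64, SE 0.35) and Lclat1 (0.21, SE 0.13), and Pcyt1b of phosphatidylcholine synthesis (-0.48, SE 0.31), each with an adjusted p of 0.998 in edgeR. There, in conditioned medium, it belonged to the choline kinase Chka (1.60, SE 0.46), Prelid3b, a carrier of phosphatidylserine in mitochondria (0.34, SE 0.13), Lclat1 (0.29, SE 0.11) and Cds2, a CDP-diacylglycerol synthase (-0.22, SE 0.093), each with an adjusted p of 0.357. Chka stood at 16.3 CPM in conditioned KO library 0 and at 69.7 and 89.2 CPM in libraries 1 and 2, against 16.8 to 20.8 CPM in conditioned WT. With conditioned KO library 0 left out, edgeR called 13 of the 43, 6 higher and 7 lower in KO, beside 33.2% of all genes called in that fit.

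Conditioned medium was where list genes were called. In WT, 3 of 43 were called, all higher, against 1.78% of all genes. They were Cds1, a CDP-diacylglycerol synthase, from 4.48 ± 0.388 to 13.4 ± 2.71 CPM (log2 1.58, SE 0.25, adjusted p = 0.0204 in edgeR), Sgpl1, the lyase that splits sphingosine phosphate and yields phosphoethanolamine (1.10, SE 0.17, adjusted p = 0.0192), and Pld3 (0.83, SE 0.13, adjusted p = 0.0204). This count fell to 0 without conditioned WT library 0, in a fit that called 0.111% of all genes. In KO, 10 of 43 were called, 7 higher and 3 lower, against 18.3% of all genes. The higher ones were Cds1 (1.56, SE 0.22), Sgpl1 (1.04, SE 0.15), Pld3 (0.65, SE 0.11), Gdpd1 (2.43, SE 0.41), Chka (2.07, SE 0.47), Chkb (0.47, SE 0.13) and the prohibitin Phb (0.53, SE 0.16). The lower ones were Cept1 (-0.53, SE 0.13), Mboat1 (-1.03, SE 0.31) and Mboat2 (-0.76, SE 0.18). Adjusted p ran from 0.00497 for Cds1 to 0.0475 for Mboat1. Without conditioned KO library 0 the count was 21, beside 44.9% of all genes, and without unconditioned KO library 0 it was 13, beside 22.8%. It was 3 or 4 when library 1 or 2 of either KO group was left out, beside 2.36% to 5.09% of all genes. The median log2 difference was 0.086 in WT and 0.092 in KO, against 0.014 and 0.018 over all genes. For none of the 43 was the interaction called by edgeR or DESeq2 (1 with an unadjusted p under 0.05). It was called by edgeR for 4 of 43 when conditioned KO library 0 was left out, beside 10.5% of all genes.

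**Figure D4:**
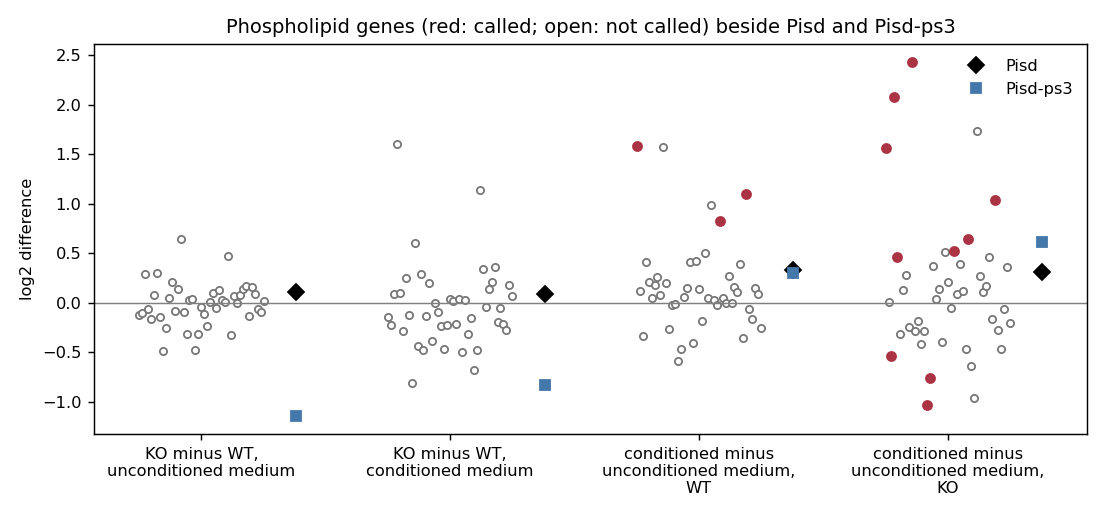
Log2 difference (vertical axis) of each of the 43 tested phospholipid genes in 4 comparisons, with called genes in red, beside Pisd (diamond) and Pisd-ps3 (square). Pisd-ps3 is at -1.14 between the genotypes in unconditioned medium, the difference by which it was selected. In conditioned medium it is at -0.83, close to Etnk2 at -0.81 (SE 0.84). Called genes appear only in the medium comparisons, 3 in WT and 10 in KO.

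No gene of the steps next to the enzyme was called between the genotypes. Of all genes, only 0.00735% were called in unconditioned and 0% in conditioned medium, so this does not set these genes apart. Ptdss1 and Ptdss2, which make phosphatidylserine, had log2 differences between KO and WT of 0.00092 (SE 0.11) and 0.079 (SE 0.16) in unconditioned medium, and -0.046 (SE 0.096) and 0.14 (SE 0.14) in conditioned medium. Pcyt2, of the CDP-ethanolamine route, had -0.31 (SE 0.23) and -0.22 (SE 0.20). Selenoi, the ethanolamine phosphotransferase of that route, had 0.17 (SE 0.18) in unconditioned medium. In conditioned medium it had 0.36 (SE 0.16, adjusted p = 0.357 in edgeR). The genes of this paragraph were named after their values were seen.

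Over the 11 libraries, the genes whose log2 CPM followed Pisd-ps3 most closely were Slc46a1, a folate transporter (Pearson r = 0.935), Hars2, a mitochondrial histidyl-tRNA synthetase (0.925), the imprinted gene Peg3 (0.906), the monoamine oxidase Maob (0.874) and Fry (0.869). Peg3 averaged 857 CPM in unconditioned WT, 602 in unconditioned KO, 908 in conditioned WT and 765 in conditioned KO. Among the relatives, r with Pisd-ps3 was 0.823 for Pisd-ps1, 0.466 for Pisd-ps2 and 0.187 for Pisd. The genes most like Pisd were Aup1 (0.960), Rab8a (0.946), 1810058I24Rik (0.946), Polr2g, a subunit of RNA polymerase (0.945), and Timm13, a chaperone of the mitochondrial intermembrane space (0.942). These are descriptions over 11 libraries that share their groups and scaling, and carry no p.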

How the data were processed

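Fragments per gene and library were read from the authors' deposited Cuffdiff tables. Per the file headers these raw fragments are expected counts (94.3% were whole), and the FPKM values are the same fragments divided by length and depth and scaled by the authors. The submitters' processing notes name CASAVA 1.8.2, TopHat2 2.0.9, Cufflinks and Cuffdiff 2.1.1 and GRCm38 (mm10). The authors' deposited test tables give log2 ratios, p-values and q-values, and a distance score between start-site shares. Other columns, such as transcript length, are used per the file headers. How the authors treated reads that fit several copies is not given in the sources used here.

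Entries without a symbol (1714, with 2.69% to 3.10% of a library's fragments) were left out. Rounded fragments were fitted with edgeR 4.0.16 in R 4.3.3 (TMM, filterByExpr, robust quasi-likelihood) in 1 model of 4 groups and 11 libraries, with 7 residual degrees of freedom. The same fit was run over start-site groups and transcripts. SE is the size of the log2 difference divided by the square root of F. The fit was tested on simulated data. Alternatives used DESeq2 1.42.0, limma 3.58.1 on log2(FPKM + 0.1) and log2(FPKM + 1), other scalings and filters, and fewer libraries. Library numbers are the table's own and are not tied to sample titles. No label says that samples came from different animals. The p-values therefore reflect only sample-to-sample spread, which may be technical. Numbers may pair the KO libraries across media, as the deviations of same-numbered libraries correlated at 0.354, 0.241 and 0.317. Those of differently numbered KO libraries correlated at -0.356 to 0.283. The value of 0.283 is above the 0.241 of a same-numbered pair, so the pairing is not settled. In WT the same-numbered correlations were -0.146 and 0.438, and numbers were not taken as pairing. The main fit had no replicate block, which was used only as an alternative.

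The members and lists were chosen with earlier results of these data known. Genes were named by rule: the members, called list genes or the 4 with the smallest p where none was called, neighbours of the members, and the 5 genes closest in log2 CPM (prior count 2) to Pisd and Pisd-ps3.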

Additional observations from a re-analysis of the deposited data

How the results depend on the processing

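Precision is limited by 2 or 3 libraries a group, by low counts of Pisd-ps1 and Pisd-ps2, and by reads that fit several copies. Where a value changed side or direction the cause was not tested. Pisd-ps3 between the genotypes in conditioned medium was called by DESeq2 (-0.83) and without both KO libraries numbered 0 (-0.78), and ranged from -0.88 to -0.77 when 1 library was left out. Its start-site groups were -1.08 and -0.70 by DESeq2 and -0.93 and -0.69 without both KO libraries numbered 0, with ranges of -1.18 to -0.93 and -0.75 to -0.64 leaving out 1 library. Its transcripts were -1.08 and -0.70, -0.92 and -0.69, with ranges of -1.17 to -0.92 and -0.75 to -0.64. With library totals as the scaling, its medium difference in KO was 0.80 and its interaction 0.44. The medium difference of Pisd in KO was called with library totals (0.50), DESeq2 (0.30), all 12 libraries (0.31) and without both KO libraries numbered 0 (0.40), and ranged from 0.25 to 0.36 leaving out 1. The interaction of Pisd changed sign with library totals (0.0976), limma on log2(FPKM + 0.1) (0.0088) and on log2(FPKM + 1) (0.0092), 12 libraries (0.0015) and without both KO libraries numbered 0 (0.0695), and ranged from -0.094 to 0.034. Pisd-ps1 in unconditioned medium was -0.54 with limma on log2(FPKM + 1) and ranged from -1.32 to -0.59, and its medium difference in WT ranged from -0.29 to 0.44. For Pisd-ps2 the medium difference in KO was 0.18 with library totals and 0.0014 with limma on log2(FPKM + 0.1), and ranged from -0.12 to 0.12. It ranged from -0.32 to 0.0071 in WT, and the interaction from -0.019 to 0.31. The second start-site group of Pisd-ps1 ranged from -0.30 to 0.10 in conditioned medium, and its transcript from -0.30 to 0.11.

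With the library number as a replicate block, the medium difference of Pisd was 0.40 (adjusted p = 0.186) in WT and 0.31 (adjusted p = 0.0856) in KO, and no call of a member changed. Called list genes in WT went from 3 to 1 under the block, beside 1.14% of all genes. Without both KO libraries numbered 0, 10 list genes were called in WT and 24 in KO. There 18 were called between the genotypes in conditioned medium, 1 in unconditioned medium and 6 for the interaction. In WT, DESeq2 called 5 list genes and the 12 libraries gave 5, beside 6.51% and 6.89% of all genes. In KO, limma on log2(FPKM + 1) gave 6, beside 15.1%, and a fit of only the 2 groups gave 3, beside 4.12%. Over all genes, calls without both KO libraries numbered 0 were 659 and 5765 between the genotypes in unconditioned and conditioned medium, 1589 and 6822 between media in WT and KO, and 2605 for the interaction, against 1, 0, 242, 2484 and 0. DESeq2 called 886 in WT and 3588 in KO, and the 12 libraries 923 in WT.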

Other observations

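The genes beside the members in the deposited coordinates were read as well. Yes1 and Ppp1cb lie below Pisd on chromosome 5, and Prr14l and Depdc5 above it, Prr14l at a distance of 3581 bases. None of them was called between the genotypes, where 0.00735% of all genes were called in unconditioned and 0% in conditioned medium. Their log2 differences in unconditioned medium were 0.21 (SE 0.16) for the kinase Yes1, 0.040 (SE 0.17) for the phosphatase subunit Ppp1cb, -0.15 (SE 0.19) for Prr14l and -0.087 (SE 0.14) for Depdc5. In conditioned medium they were, in the same order, 0.051 (SE 0.14), 0.18 (SE 0.15), 0.37 (SE 0.17) and 0.024 (SE 0.12). Depdc5, a regulator of mTORC1 signalling, was lower in conditioned medium in KO (-0.50, SE 0.12, adjusted p = 0.0259 in edgeR) and had -0.61 (SE 0.14, adjusted p = 0.0568) in WT, whereas Pisd had positive values in both.

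Sfi1 has the same interval as Pisd-ps1 in the deposited coordinates. It had -0.14 (SE 0.25) between KO and WT in unconditioned medium and -0.33 (SE 0.22, adjusted p = 0.436 in edgeR) in conditioned medium. Eif4enif1 and the entry of Gm11944 and Patz1, the next on that side, had 0.0029 (SE 0.13) and -0.083 (SE 0.14) in unconditioned medium. Scaf8, on the higher side of Pisd-ps2, had -0.064 (SE 0.12) and, in conditioned medium, 0.27 (SE 0.11, adjusted p = 0.357 in edgeR). Apart from Pisd-ps3, the contig of that gene holds 1 entry, which has no symbol.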
